A study of Mus musculus with 8 samples.

Results

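A set of 43 genes for the NRF2 pathway, glutathione and thioredoxin metabolism, and the detoxification of aldehydes and other reactive molecules was compared between 2 kinds of natural killer (NK) cell, those with tuNK in their titles (tumour-infiltrating, 4 libraries) and those with spNK (splenic, 4 libraries). The members were taken by symbol from the deposited tables of 45706 genes, and each of the 43 symbols matched 1 row. After a filter on low counts, 14006 genes were tested, among them 42 of the 43. Gpx2 had 0 counts in all 8 libraries and could not be tested.

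Both groups came from BALB/c mice inoculated under the skin with CT26_β2m-/-, a mouse colorectal carcinoma line that lacks β2-microglobulin and so shows no MHC class I on its surface. The tissues were digested with enzymes, and NK cells were sorted with magnetic beads and by flow cytometry. The labels give no age, sort markers, or statement of whether spleens and tumours came from the same mice or replicates from separate ones, so the p-values reflect the spread between these libraries, which may be technical. In all 8 samples the labels for tissue and source give the tissue opposite to that in the title, and directions here follow the title.

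NRF2 (gene Nfe2l2) is a transcription factor that KEAP1 holds in the cytoplasm and hands over for destruction. Oxidants and electrophiles modify KEAP1, NRF2 enters the nucleus, pairs with small MAF proteins and binds antioxidant response elements in the promoters and enhancers of its target genes. Those targets make glutathione and NADPH, keep thioredoxin and peroxiredoxins reduced, and couple or oxidise reactive carbonyls. Glutathione is a small thiol that peroxidases use against peroxides and that glutathione transferases attach to electrophiles.

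Of the 42 tested members, 33 were called (edgeR adjusted p of at most 0.05), where 69.6% of all genes tested were. Of these, 25 (59.5% of the 42) were higher and 8 (19.0%) were lower in tuNK, against 35.6% and 34% of all genes. The median log2 fold change, tuNK minus spNK, was 0.63 over the members and 0.02 over all genes, and it was also 0.63 with Adh7 and Aldh1a1, each at 0 in one group, set to their bounds. At least 4-fold rises were called for 11 members (26.2%, against 13.4% of all genes) and at least 4-fold falls for 5 (11.9%, against 9.25%). The 4 tuNK values lay apart from the 4 spNK values in 29 members (69.0%), a share near the 67.1% of all genes. The members were chosen with results of these data known, so these counts describe the list. Counts by role, given further on, cover 2 to 7 tested genes each and are to be read against the same shares of all genes. A member such as Adh7 passed the filter only through the group in which it is high.

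The largest rises were in Adh7, Gstm2, Aldh3a1 and Me1, which stood near or at 0 in spNK and at 37.0 to 84.2 CPM (counts scaled to library size with TMM factors) on average in tuNK. The largest fall was in Aldh1a1, at 23.1 ± 13 CPM (SD, n = 4) in spNK and 0 counts in tuNK. Nfe2l2 itself was not called, and neither were the NRF2 target genes Gclm and Txnrd1. Nqo1, an often used marker of NRF2 activity, was lower in tuNK, but not when scaled to leukocyte genes as described below. Other NRF2 targets went up. Hmox1 rose 7.72-fold, and of 16 targets outside the members 12 (75%) were higher and 1 (6.25%) lower. Of all genes, 35.6% were higher and 34% lower.

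**Figure D1:**
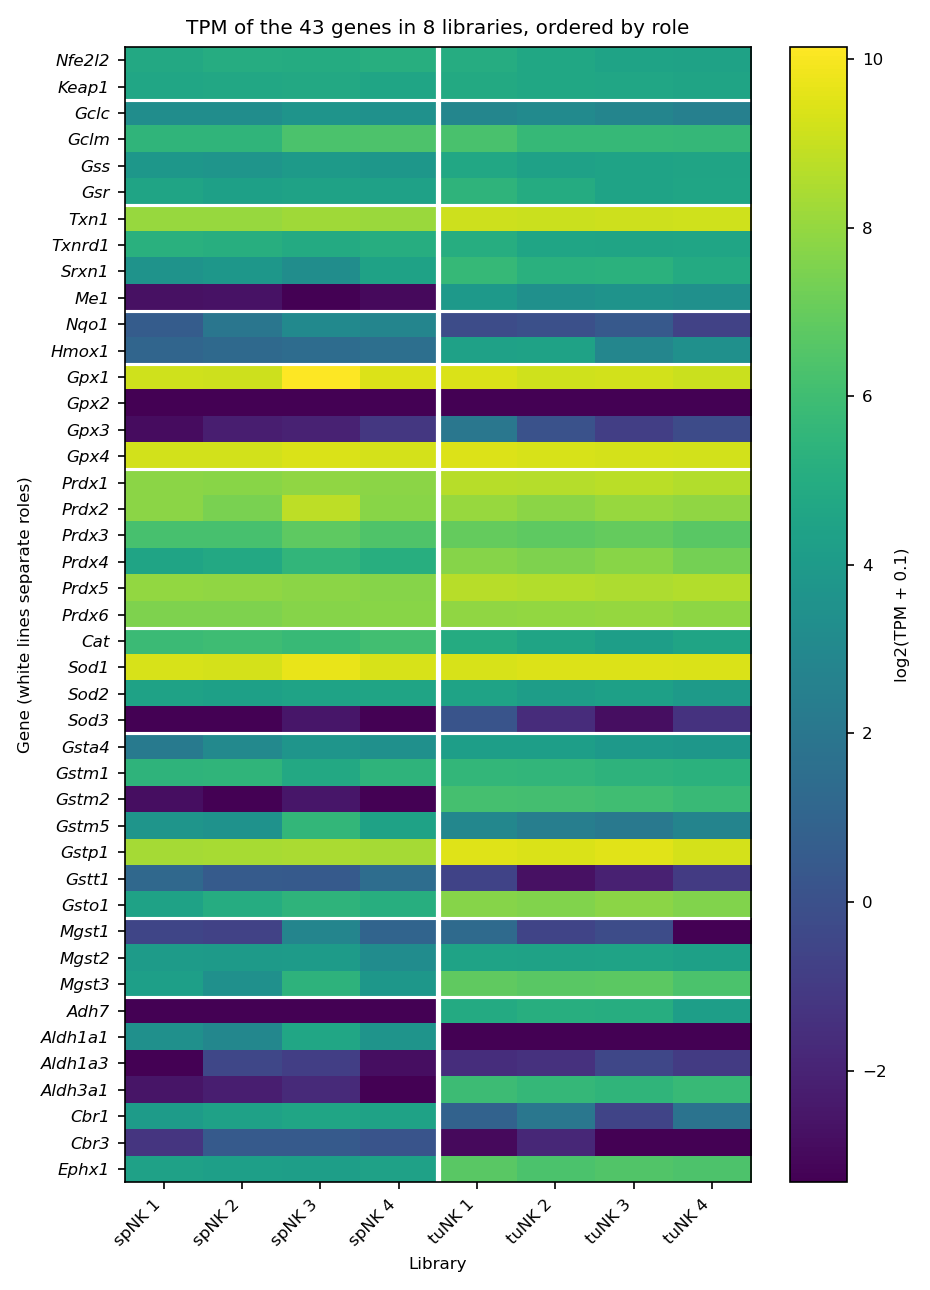
Rows are the 43 genes ordered by role, columns are the 8 libraries, and colour is log2(TPM + 0.1), the length-scaled level. Me1, Gstm2, Adh7 and Aldh3a1 are dark in spNK and bright in tuNK, Aldh1a1 is the reverse, and Gpx1 and Prdx2 are brightest in spNK 3.

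Total estimated counts ran from 38745733 to 53886933 per library. Markers of NK cells summed to 13300 to 18800 CPM in spNK and 5390 to 7430 CPM in tuNK, with 11 of 12 lower. The 14 markers of fibroblasts and mesenchymal tumour cells were all higher in tuNK, at 96 to 160 CPM in spNK and 3310 to 5020 CPM in tuNK, highest in tuNK 1. Epithelial tumour cell markers summed to 1.22 to 10 and 47.7 to 69.3 CPM, with 4 of 6 tested higher. Erythroid markers, 9 of 9 lower, stood at 192 to 854 CPM in spNK (highest in spNK 3) and 0.362 to 2.27 CPM in tuNK. B cell markers summed to 258 to 1290 and 24.4 to 37.5 CPM (7 of 8 lower) and macrophage and monocyte markers to 864 to 1050 and 324 to 490 CPM (4 of 9 lower, 1 higher). Lyz2, Csf1r, Mrc1, Cd68 and the C1q genes, given below, made up a small part of these macrophage and monocyte sums. The rest came from Adgre1, Fcgr1, Ly6c2 and Ccr2, and whether macrophages were its source was not tested. Platelet, neutrophil, T cell and endothelial markers fell in 8 of 9, 3 of 3, 5 of 5 and 3 of 4 tested genes. Their sums were 427 to 749, 8.57 to 46.4, 51.9 to 63.2 and 145 to 177 CPM in spNK and 46.3 to 121, 0.186 to 0.89, 14.1 to 24.5 and 43.2 to 69.7 CPM in tuNK. The part of these cells in the members' values was not tested.

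A list of 38 genes expressed across leukocytes, 36 of 37 tested being lower, stood at 26.6 to 34.9% of the spNK mean in tuNK. In bulk RNA, fewer cells of a type and less RNA per cell cannot be told apart. Scaling each library to these genes in place of TMM put the median change over all genes at 1.73 (log2) and the share of higher genes among those called from 51.1% to 92.7%. By that scaling 35 members were higher, 2 were lower and 5 were not called, with a median of 2.33, against 78.6% higher and 6.2% lower of all genes. The 25 members that rose were all higher by it too, as its upward shift of all genes implies, so this is no separate support. Library size alone put the median over all genes at -0.15 and log2(TPM + 1) at -0.14.

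**Figure D2:**
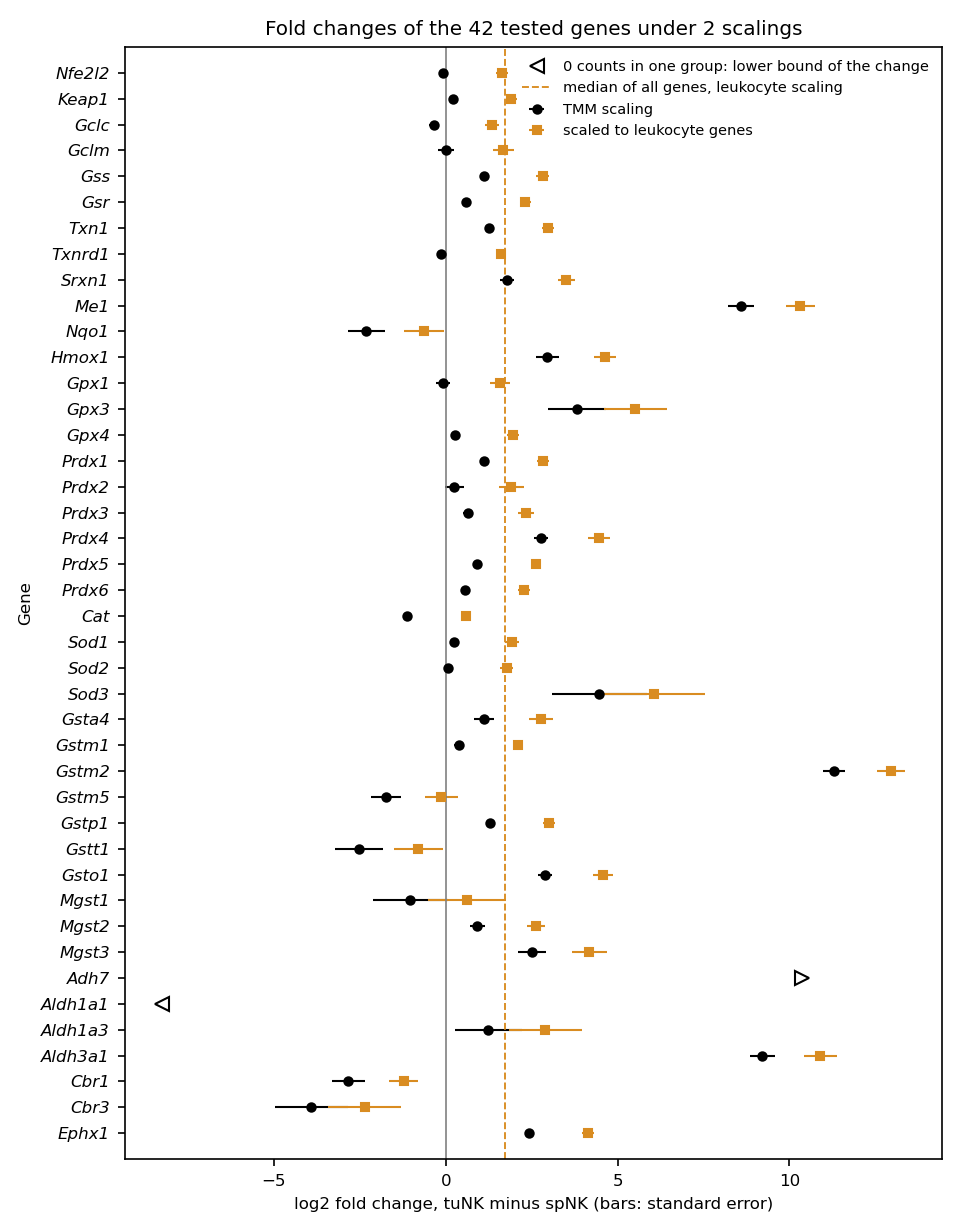
Each row is 1 of the 42 tested genes and the x axis is the log2 fold change, tuNK minus spNK, with its standard error. Circles are TMM scaling, squares are scaling to leukocyte genes with the median of all genes at 1.73 as a dashed line, and open triangles are the bounds for Adh7 (10.37) and Aldh1a1 (-8.27), which had 0 counts in one group.

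Promoter sequence was available from RefSeq (GRCm38.p6, 250 bases before to 50 after a gene's start) for 35 of the 43 members. The core of the antioxidant response element, TGACNNNGC, was searched on both strands, together with the AP-1 site TGANTCA, which overlaps it where the bases after TGA allow. The element's core was found for 9 of the 35 members (25.71%) and for 13.99% of 27025 genes, and the AP-1 site for 8 (22.86%) and 8.97%. Such a match is a description of the letters and not a site. The windows below hold the 140 bases before the start of 5 genes that rose (Adh7, Me1, Srxn1, Prdx1, Gstp1) and of Aldh1a1, which fell, since an AP-1 match occurs in genes of both directions. Capitals mark matches to either motif, written 5′ to 3′ on the gene's strand.
Adh7, chr3:138217633-138217772, plus strand: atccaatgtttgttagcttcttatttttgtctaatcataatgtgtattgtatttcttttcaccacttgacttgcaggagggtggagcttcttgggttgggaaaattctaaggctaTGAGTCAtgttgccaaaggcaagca
Me1, chr9:86695912-86696054, minus strand: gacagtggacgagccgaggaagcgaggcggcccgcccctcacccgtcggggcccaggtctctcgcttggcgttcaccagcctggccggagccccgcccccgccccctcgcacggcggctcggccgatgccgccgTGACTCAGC
Srxn1, chr2:152105384-152105523, plus strand: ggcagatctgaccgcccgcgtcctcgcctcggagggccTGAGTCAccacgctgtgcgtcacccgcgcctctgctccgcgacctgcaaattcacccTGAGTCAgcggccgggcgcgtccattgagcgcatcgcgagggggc
Prdx1, chr4:116685459-116685598, plus strand: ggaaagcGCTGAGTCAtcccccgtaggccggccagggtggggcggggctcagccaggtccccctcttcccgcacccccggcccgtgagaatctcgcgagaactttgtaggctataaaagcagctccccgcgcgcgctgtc
Gstp1, chr19:4037913-4038052, minus strand: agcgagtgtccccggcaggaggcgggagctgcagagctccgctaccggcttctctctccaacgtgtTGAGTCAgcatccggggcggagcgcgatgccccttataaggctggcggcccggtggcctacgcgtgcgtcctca
Aldh1a1, chr19:20492443-20492582, plus strand: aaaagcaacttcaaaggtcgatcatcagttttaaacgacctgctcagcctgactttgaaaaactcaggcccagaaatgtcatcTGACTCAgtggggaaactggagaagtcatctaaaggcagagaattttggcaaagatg
In the Me1 window both motifs fall on the same bases, TGACTCAGC, which run 3 bases past the start. Both also fall on the same bases in the Prdx1 window, GCTGAGTCA, with the core on the opposite strand. Of the members with a promoter, the AP-1 site was found in 6 of 19 that rose, 2 of 7 that fell and 0 of 8 not called. The element's core was found in 3 of 19 that rose (Srxn1, Me1 and Prdx1), 1 of 7 that fell (Gstm5) and 5 of 8 not called (Nfe2l2, Gclm, Txnrd1, Sod1 and Mgst1). The core match of Srxn1 lies 28 bases past the start, outside the bases printed, and the capitals shown for Srxn1 are AP-1 matches.

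Of the 2 regulators of the pathway, Nfe2l2 was not called and Keap1 was slightly higher in tuNK. Nfe2l2 (ENSMUSG00000015839, chr2:75675513-75704641 on GRCm38) stood at 55.1, 66.0, 63.7 and 71.6 CPM in spNK 1 to 4 and at 68.6, 61.6, 58.5 and 55.8 CPM in tuNK 1 to 4. The groups overlapped, and the log2 fold change of -0.07 ± 0.10 (SE) was not called (edgeR adjusted p = 0.567), though it was 1.64 when scaled to leukocyte genes. Keap1 (ENSMUSG00000003308, chr9:21229730-21239361), whose protein restrains NRF2, was at 62.8, 68.3, 73.1 and 64.0 CPM in spNK and 77.9, 79.8, 79.6 and 72.9 CPM in tuNK. The values overlap narrowly, and its rise of 0.21 ± 0.08 (adjusted p = 0.0379) was lost without any one of spNK 1, 2 and 4 and tuNK 1, 2 and 3, was 0.04 by library size (adjusted p = 0.67), and turned to -0.03 on log2(TPM + 1).

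Of the genes for glutathione synthesis and recycling, 2 rose and 1 fell. Gclc, the catalytic subunit of glutamate-cysteine ligase, the rate-limiting enzyme of glutathione synthesis, was at 28.0, 28.2, 36.8 and 32.3 CPM in spNK and 21.9, 29.8, 25.7 and 20.8 CPM in tuNK. These values overlapped, and its change of -0.35 ± 0.14 (adjusted p = 0.0478) was not called in DESeq2 (adjusted p = 0.0512), with the replicate block (0.0516) or without any one of spNK 3 and 4 and tuNK 1, 3 and 4 (-0.29 for tuNK 4, adjusted p = 0.121), and was 1.34 when scaled to leukocyte genes. Gclm, the modifier subunit of that ligase, varied widely within spNK, at 42.7, 37.3, 80.1 and 68.3 CPM, and lay within that range in tuNK, at 66.6, 55.3, 55.0 and 51.1 CPM (log2 fold change 0.00 ± 0.23, adjusted p = 0.992; 1.67 when scaled to leukocyte genes). Gss, glutathione synthetase, which adds glycine in the last step, rose 2.16-fold, from 18.7 ± 1.19 to 40.3 ± 2.80 CPM (adjusted p = 3.12e-06). Gsr, the reductase that regenerates glutathione with NADPH, rose 1.52-fold (46.9 ± 4.04 to 71.3 ± 7.57 CPM, adjusted p = 0.00033), a call that was lost on log2(TPM + 1) (0.42, adjusted p = 0.0609).

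Of the thioredoxin genes and Me1, 3 of 4 rose. Me1, the cytosolic malic enzyme that makes NADPH from malate, was at 0.14, 0.16, 0 and 0.068 CPM in spNK and 42.9, 35.5, 36.9 and 32.8 CPM in tuNK. Every tuNK library was far above every spNK library, with a log2 fold change of 8.59 ± 0.39 (adjusted p = 3.16e-08) that was 3.66 on log2(TPM + 1), an offset that compresses genes near 0. Of the 60-base stretches of Me1, the length of the reads, 19.9% also occur in other annotated genes, mostly Gm7049. An antisense gene, A330041J22Rik, overlaps the position of Me1. Whether reads of these genes are among those of Me1 was not tested. Srxn1, sulfiredoxin, which repairs overoxidised peroxiredoxins, rose 3.43-fold (30.6 ± 7.91 to 105 ± 16.8 CPM, adjusted p = 1.31e-05). Txn1, the cytosolic thioredoxin, rose 2.42-fold from 210 ± 13.5 to 509 ± 51.3 CPM (adjusted p = 7.4e-07). Txnrd1, the selenoprotein that reduces thioredoxin, was not called. It was at 105, 99.9, 88.8 and 95.6 CPM in spNK and 101, 83.5, 86.3 and 86.5 CPM in tuNK, with overlapping values and a log2 fold change of -0.13 ± 0.09 (adjusted p = 0.23). It was called lower without spNK 3 and tuNK 1 (-0.24, adjusted p = 0.021), by library size (-0.29, adjusted p = 0.0239) and on log2(TPM + 1) (-0.36, adjusted p = 0.0294), and was 1.60 when scaled to leukocyte genes.

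Nqo1 and Hmox1, both textbook NRF2 targets, went in opposite directions. Nqo1, a quinone reductase, was at 1.68, 4.69, 10.3 and 8.36 CPM in spNK and 0.984, 1.26, 1.96 and 0.817 CPM in tuNK. Only spNK 1 reached into the tuNK range, and the fall of 2.31 ± 0.53 (adjusted p = 0.00251) was -0.64 and not called when scaled to leukocyte genes (adjusted p = 0.312). Hmox1, haem oxygenase 1, which breaks down haem and is abundant in macrophages, was at 2.51, 3, 2.23 and 3.65 CPM in spNK and 27.6, 32.1, 11.3 and 17.0 CPM in tuNK. All 4 tuNK values were higher, by 2.95 ± 0.33 on the log2 scale (adjusted p = 1.92e-05), while 4 of the 9 tested macrophage and monocyte markers were lower in tuNK and 1, Mrc1, was higher. Mrc1 rose from 0.4 ± 0.507 to 3.67 ± 0.459 CPM. Lyz2 (96.4 to 2.16 CPM), Csf1r (2.83 to 0.0836 CPM), Ly6c2 and Ccr2 were lower. Cd68 stood at 6.92 ± 3.78 and 7.23 ± 1.59 CPM, and C1qa, C1qb and C1qc at 0.354 to 0.568 CPM in spNK and 0.224 to 0.38 CPM in tuNK, none of them called. The part of macrophages in the Hmox1 values was not tested.

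**Figure D3:**
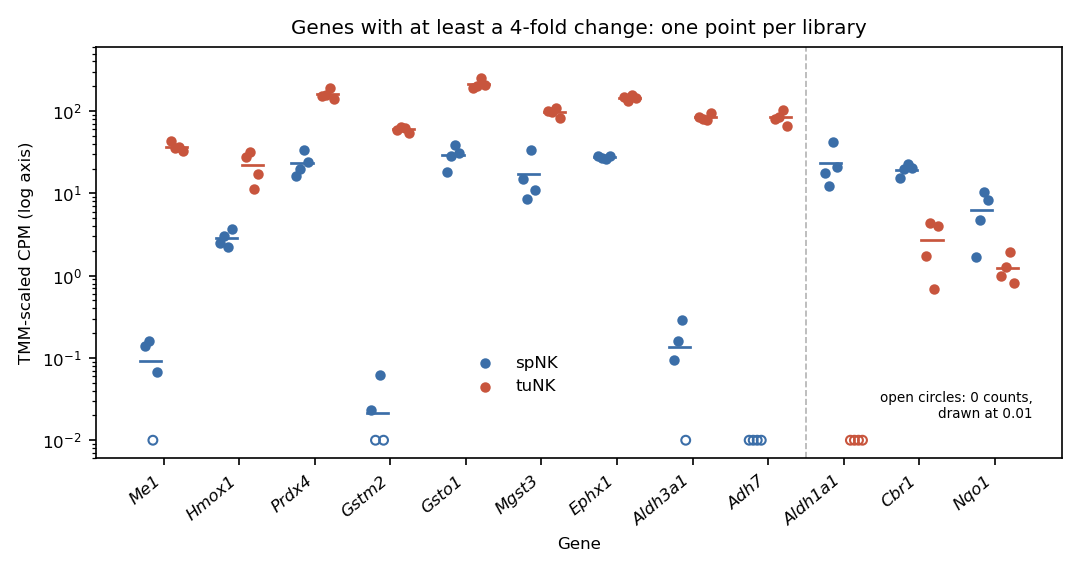
Points are single libraries and lines are group means, in TMM-scaled CPM on a log axis, for the 12 members that changed 4-fold or more and reached a mean of 5 CPM in either group. To the left of the dashed line tuNK is above spNK in every library, to the right it is lower, with Nqo1 of spNK 1 inside the tuNK range; open circles are libraries with 0 counts.

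Glutathione peroxidases reduce peroxides with glutathione. Of the 4, Gpx1 and Gpx4 were abundant and Gpx3 was scarce, and Gpx3 and Gpx4 were called higher. Gpx4, which guards membrane lipids against peroxidation, rose 1.20-fold (384 ± 25.2 to 460 ± 18.5 CPM, adjusted p = 0.0119), but not on log2(TPM + 1) (0.03, adjusted p = 0.682) by library size (0.09, adjusted p = 0.287) or without spNK 1 (0.22, adjusted p = 0.0512). Of its 60-base stretches, the length of the reads, 32.71% also occur in the pseudogene Gpx4-ps2. Gpx1, the cytosolic enzyme, was at 309, 319, 638 and 391 CPM in spNK and 387, 382, 415 and 377 CPM in tuNK. The change of Gpx1 was -0.09 ± 0.21 (adjusted p = 0.724), or 1.58 when scaled to leukocyte genes. Its highest value was in spNK 3, the library with most erythroid and B cell markers, and the part of those cells was not tested. Gpx3, a secreted enzyme, was scarce, at 0.0465 to 0.317 CPM in spNK and 0.737 to 5.25 CPM in tuNK. Its rise was 3.82 ± 0.85 (adjusted p = 0.00211), 2.86 without tuNK 1 and 4.45 without spNK 4. On log2(TPM + 1) the rise of Gpx3 was 0.95 (adjusted p = 0.0232), and there it was not called without a filter (adjusted p = 0.0564). Gpx2, the enzyme of gut epithelium, had 0 counts throughout.

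Of the 6 peroxiredoxins, which are thiol peroxidases, 5 rose and Prdx2 was not called. Prdx4, the form of the endoplasmic reticulum, was at 16.2, 20.0, 33.2 and 24.2 CPM in spNK and 153, 155, 191 and 141 CPM in tuNK. Its rise of 6.82-fold (2.77 ± 0.21 on the log2 scale, adjusted p = 1.45e-06) exceeded those of the cytosolic Prdx1 (2.18-fold, 232 ± 12.3 to 506 ± 59.1 CPM) and Prdx6 (1.48-fold), the mitochondrial Prdx3 (1.57-fold) and Prdx5, found in several compartments (1.87-fold). The differences between these rises were not tested, and the adjusted p of the 4 ran from 2.31e-06 to 0.00149. Prdx2, abundant in red cells, was at 206, 169, 445 and 218 CPM in spNK and 284, 283, 349 and 315 CPM in tuNK. Its spNK 3 value lay above all tuNK values, so the change was 0.25 ± 0.28 (adjusted p = 0.451) with that library and 0.63 (adjusted p = 0.000555) without it. The erythroid markers of spNK 3 summed to 854 CPM, against 192 to 528 CPM in the other spNK libraries. Its B cell markers were also the highest (1290 CPM, against 258 to 927 CPM), as were its neutrophil and its macrophage and monocyte markers. The part of any of these cells in the Prdx2 values was not tested.

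Catalase and the superoxide dismutases did not move together. Cat, the peroxisomal enzyme that splits hydrogen peroxide, fell 2.18-fold in tuNK (113 ± 11.3 to 51.8 ± 4.70 CPM, adjusted p = 2.91e-06), but with leukocyte scaling it was called higher, at 0.59 (adjusted p = 0.00213). Sod1, the cytosolic dismutase, was at 272 ± 42.9 and 322 ± 35.5 CPM (0.24 ± 0.12, adjusted p = 0.0949). It was called higher without spNK 3 (0.35, adjusted p = 0.00851), without tuNK 1 (0.31, adjusted p = 0.046) and with the replicate block (0.25, adjusted p = 0.0383). Sod2, the mitochondrial form, was at 71.1 ± 4.51 and 74.1 ± 6.66 CPM (0.06 ± 0.09, adjusted p = 0.576). Sod3, the secreted form, had counts in spNK only in spNK 3 (0.245 CPM) and 0.178 to 3.47 CPM in tuNK. Its rise of 4.47 ± 1.38 (adjusted p = 0.0141) was 8.95 without spNK 3 and was lost on log2(TPM + 1) (0.42, adjusted p = 0.0571). It was also lost without tuNK 1 (3.53, adjusted p = 0.0568), the library with most mesenchymal markers, and the part of those cells was not tested.

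Glutathione transferases attach glutathione to electrophiles, and 5 of the 7 soluble members rose while Gstm5 and Gstt1 fell. Gstp1, the pi-class enzyme, rose 2.45-fold (164 ± 6.39 to 404 ± 43.8 CPM, adjusted p = 5.12e-07), although 31.85% of its 60-base stretches are shared, mostly with Gstp2. Per length it stood at 681 ± 51.8 TPM in tuNK, level within that spread with Sod1 (678 ± 18.5 TPM), and at 330 ± 7.70 TPM in spNK. Gsto1, the omega-class enzyme, was at 18.4, 28.7, 38.3 and 30.6 CPM in spNK and 193, 204, 251 and 210 CPM in tuNK. Those values do not overlap, and the rise was 7.39-fold (2.89 ± 0.20 on the log2 scale, adjusted p = 8.52e-07). Its neighbour Gsto2 rose by 3.73 ± 0.75 from 0.268 ± 0.20 to 3.63 ± 1.01 CPM (adjusted p = 0.00106, named after its values were seen). Gsta4, which clears the lipid aldehyde 4-hydroxynonenal, rose 2.15-fold (6.2 ± 2.51 to 13.4 ± 1.28 CPM, adjusted p = 0.00461). Gstt1, the theta-class enzyme, fell by 2.52 ± 0.70 from 1.44 ± 0.514 to 0.249 ± 0.192 CPM (adjusted p = 0.00753), but its change was -0.80 and not called when scaled to leukocyte genes.

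The mu-class genes lie side by side on chromosome 3, 7 of them within 149.1 kb, and differed sharply from each other. Gstm2 (chr3:107981702-107986453, minus strand) was at 0.0233, 0, 0.0613 and 0 CPM in spNK and 58.7, 63.7, 62.9 and 54.3 CPM in tuNK, a log2 change of 11.31 ± 0.32 (adjusted p = 1.77e-09; 12.56 without spNK 3). Its 4 spNK values rest on 0 to 3 counts per library, so the size of that change depends on few reads. Gstm1 (chr3:108012255-108017973), the next gene, was at 42, 44.3, 27.7 and 42.4 CPM in spNK and 49.4, 54.3, 50.8 and 47.9 CPM in tuNK. Its rise of 1.29-fold (0.37 ± 0.14, adjusted p = 0.0348) was lost by library size (0.21, adjusted p = 0.209), on log2(TPM + 1) (0.15, adjusted p = 0.403) and without tuNK 1, 2 or 3 (adjusted p of 0.0575, 0.0878 and 0.0649). Gstm5 (chr3:107895821-107898686), at the other end, fell by 1.75 ± 0.44 (adjusted p = 0.00485) and by 1.11 without spNK 3, where it stood at 32.3 CPM against 7.83 to 13.4 CPM in the other spNK libraries. When scaled to leukocyte genes it was at -0.13 and not called.

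Per length, Gstm2 went from 0.0296 ± 0.0374 to 65.3 ± 7.25 TPM, above the 44.0 ± 4.58 TPM of Gstm1 in tuNK. Gstm4, beyond Gstm1, fell from 10.4 ± 2.72 to 2.73 ± 0.712 TPM (log2 fold change of counts -1.80 ± 0.28, adjusted p = 0.00018; -0.10 and not called when scaled to leukocyte genes). Gstm7 was not called, and Gstm3 and Gstm6 were too low to test, all 3 being named as neighbours in the cluster after their values were seen. Of the 60-base stretches of Gstm2, 3.87% occur in another gene and 1 is shared with Gstm1, while 15.56% of those of Gstm1 are shared, mostly with a pseudogene and Gstm3.

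**Figure D4:**
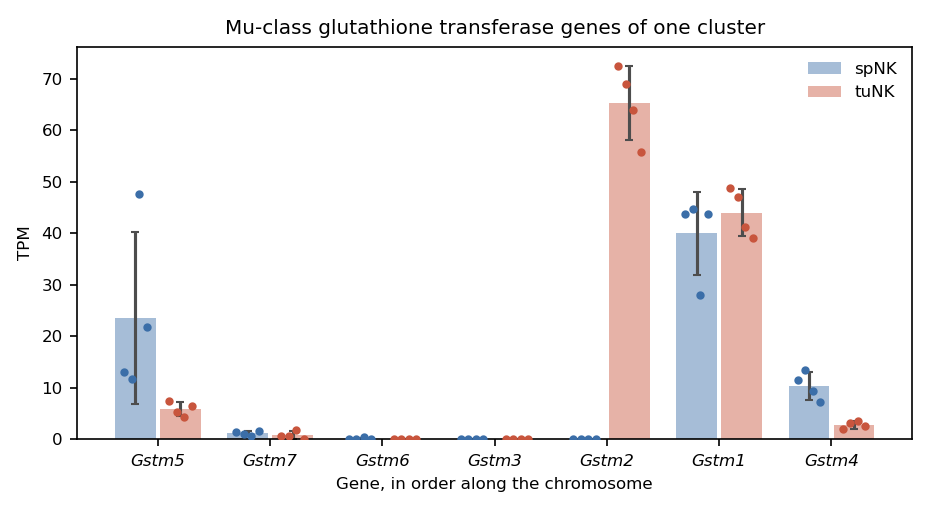
Bars are mean TPM of 4 libraries with SD, points are single libraries, and genes are in chromosome order. Gstm2 is at 65.3 TPM in tuNK and near 0 in spNK, its neighbour Gstm1 is at 44.0 and 40.0 TPM, and Gstm5 and Gstm4 are lower in tuNK.

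Of the 3 microsomal transferases, membrane enzymes with transferase or peroxidase activity, 2 rose. Mgst3 was at 15.1, 8.61, 33.7 and 11.0 CPM in spNK and 98.8, 98, 110 and 82.7 CPM in tuNK. The groups do not overlap, and the rise was 5.70-fold (2.51 ± 0.41 on the log2 scale, adjusted p = 0.000575). Mgst2, which can make leukotriene C4, rose 1.87-fold (4.82 ± 1.14 to 9.05 ± 0.943 CPM, adjusted p = 0.00367). Mgst1 had values of 0.337 to 3.72 CPM in spNK and 0 to 1.71 CPM in tuNK, and its change of -1.03 ± 1.09 (adjusted p = 0.42) was 0.08 without spNK 3.

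The enzymes of aldehydes, alcohols, carbonyls and epoxides held the largest changes in both directions. Of the 7, 3 were higher and 3 lower (42.9% each), not far from the 35.6% and 34% of all genes. Adh7 (ENSMUSG00000055301, chr3:138217760-138233382), an alcohol dehydrogenase of stomach and other epithelia that also oxidises retinol, had 0 counts in all spNK libraries and 80.4, 84.8, 104 and 64.9 CPM in tuNK. Against a floor of 3 counts per library it was at least 1320-fold higher (adjusted p = 3.6e-08). An antisense gene, 0610031O16Rik, overlaps its position, and with the strand setting unknown, reads of that gene may be among those of Adh7, which was not tested. Its neighbours on chromosome 3 differ. Adh1 stood at 0 and 0.0558 ± 0.0728 CPM and was too low to test, and Adh5, which handles formaldehyde bound to glutathione, rose 1.85-fold from 107 ± 6.10 to 199 ± 16 CPM (adjusted p = 4.54e-06, both named after their values were seen).

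Aldh3a1 (ENSMUSG00000019102, chr11:61207537-61218421), which oxidises aromatic and medium-chain aldehydes and is a major protein of the cornea, was at 0.0931, 0.16, 0.286 and 0 CPM in spNK and 85.2, 80.2, 77.7 and 93.6 CPM in tuNK. The rise was 9.21 ± 0.37 on the log2 scale (adjusted p = 2.39e-08), and 9.81 without spNK 3. Aldh1a1 (ENSMUSG00000053279, chr19:20492715-20643465), a retinaldehyde dehydrogenase, was at 17.5, 12.4, 41.9 and 20.8 CPM in spNK, highest in spNK 3, and had 0 counts in all 4 tuNK libraries. It was at least 308-fold lower in tuNK (adjusted p = 2.31e-05), and lower also when scaled to leukocyte genes (adjusted p = 2.12e-05). Aldh1a3, a related enzyme, stayed below 1 CPM in every library and was not called (1.24 ± 0.98, adjusted p = 0.279; called when scaled to leukocyte genes, at 2.90).

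Ephx1, the microsomal epoxide hydrolase, was at 28.6, 27.0, 26.0 and 28.4 CPM in spNK and 149, 134, 157 and 144 CPM in tuNK. Its values were tight in both groups, and it rose 5.32-fold (2.41 ± 0.08 on the log2 scale, adjusted p = 5.84e-09). The carbonyl reductases Cbr1 and Cbr3, which lie within 85.1 kb on chromosome 16, both fell. Cbr1 was at 15.2, 19.8, 22.6 and 20.1 CPM in spNK and 1.73, 4.38, 0.686 and 4.06 CPM in tuNK. It fell by 2.84 ± 0.48 (adjusted p = 0.000525) and stayed lower, at -1.23, when scaled to leukocyte genes (adjusted p = 0.0186). Cbr3 was scarce, at 0.861 ± 0.406 and 0.0531 ± 0.0897 CPM, and fell by 3.91 ± 1.07 (adjusted p = 0.00691), by 6.25 without tuNK 2, with a value of -2.36 that was not called when scaled to leukocyte genes (adjusted p = 0.0549).

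Of all RNA measured per length, the 43 genes made up 0.372 to 0.511% in spNK, highest in spNK 3, and 0.534 to 0.602% in tuNK. The largest gains in mean level were those of Gstp1 (351 TPM), Txn1 (283 TPM), Prdx1 (185 TPM), Gsto1 (172.2 TPM), Prdx5 (159 TPM) and Prdx4 (157.1 TPM), whereas Adh7, Aldh3a1 and Gstm2, with the largest fold changes, gained 29.4, 51.7 and 65.3 TPM. The mean of Gpx1 was 738 ± 266 TPM in spNK and 592 ± 56.1 TPM in tuNK, a difference of -146 TPM that was -16.7 TPM without spNK 3 (spNK mean 609 TPM). Without that library the largest loss was that of Cat, at -37.7 TPM. In all, 26 of the 41 tested members with any count in spNK had their highest spNK value in spNK 3, a share of 63.4% against 30.8% of all genes tested. In tuNK the highest value was most often in tuNK 3, for 18 of 41 members (43.9%, against 26.9% of all genes), and in tuNK 1 for 11 (26.8%, against 31%).

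Beyond the members, 7 lists of related genes were read from the same fit, and 39 of their 90 tested genes were higher (43.3%) and 26 lower (28.9%), shares not far from the 35.6% and 34% of all genes. Their median log2 fold change was 0.17, against 0.02 over all genes. The counts of the single lists that follow are to be read against the same shares. Other NRF2 targets were higher for 12 of 16 (75%) and lower for 1 (6.25%), with a median of 0.85. Akr1b8, an aldo-keto reductase, went from 0.0453 ± 0.0906 to 46.8 ± 3.87 CPM (adjusted p = 1.86e-07), Abcc1, which exports glutathione conjugates, rose 4.08-fold, Ugdh, which makes UDP-glucuronate, rose 3.57-fold, and Pir rose 41.5-fold from 0.432 ± 0.267 CPM. Slc7a11, the cystine importer that feeds glutathione synthesis, rose 57.7-fold from 0.323 ± 0.183 to 19.0 ± 6.29 CPM (adjusted p = 1.34e-06, named after its values were seen). The gene that fell was Taldo1, of the pentose phosphate pathway (-0.77 ± 0.09, but 0.92 when scaled to leukocyte genes, named after its values were seen).

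Of 10 partners and regulators of NRF2, 3 (30%) rose and 2 (20%) fell. All 10 were higher when scaled to leukocyte genes, where 78.6% of all genes were, and their median of 1.80 was near the 1.73 of all genes. The small MAF genes Maff and Mafg rose, Maff from 0.378 ± 0.185 to 48.6 ± 8.85 CPM (adjusted p = 4.53e-08) and Mafg 3.51-fold (adjusted p = 1.78e-07). Mafk, also a small MAF gene, was not called (-0.28 ± 0.17, adjusted p = 0.168, named after its values were seen). Its mean went from 48.6 ± 5.28 to 40 ± 11.2 CPM, with overlapping values. Nfe2l1, a relative of Nfe2l2, rose 1.67-fold. Cul3, the ligase scaffold with which KEAP1 works, changed by -1.10 ± 0.11 (0.61 when scaled to leukocyte genes), and Bach1, a repressor that competes for the same elements, by -1.03 ± 0.23 (0.69, named after its values were seen).

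Other glutathione and glutaredoxin genes were higher for 7 of 17 (41.2%) and lower for 6 (35.3%). Slc1a5 and Slc3a2, subunits of amino acid transporters, rose 3.88-fold and 2.54-fold, Gpx8, a peroxidase of the endoplasmic reticulum, rose 3.38-fold, and Chac1, which degrades glutathione, went from 0.0488 ± 0.0976 to 49.6 ± 14.3 CPM (adjusted p = 9.71e-07). Of 9 other thioredoxin system genes 3 were higher (33.3%) and 4 lower (44.4%). Txnip, an inhibitor of thioredoxin, fell 2.62-fold but was at 0.31 and higher when scaled to leukocyte genes, Sesn1, a sestrin, fell 6.58-fold and stayed lower (-1.01), Sesn3 changed by -1.08 (0.61 when scaled to leukocyte genes), and the mitochondrial Txn2 rose 1.84-fold.

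Of 11 other glutathione transferase genes tested, 5 were higher (45.5%) and 3 lower (27.3%). Gsta1, an alpha-class enzyme, had no counts in spNK libraries and stood at least 60.7-fold higher in tuNK (3.83 ± 1.37 CPM, adjusted p = 1.39e-05), Gstcd rose 2.78-fold, and Gstt2 fell 2.55-fold (0.35 and not called when scaled to leukocyte genes). Of 21 other aldehyde and carbonyl genes tested, 9 were higher (42.9%) and 4 lower (19.0%). Aldh1l2, a mitochondrial folate enzyme, had 1 count over the 4 spNK libraries together and 61.8 ± 10.6 CPM in tuNK (adjusted p = 1.21e-09), Aldh18a1, of proline synthesis, rose 3.06-fold, Aldh7a1 rose 3.04-fold, and Akr1c13 fell 4.66-fold and stayed lower (-0.51) when scaled to leukocyte genes. The 6 genes of the phagocyte NADPH oxidase, which makes superoxide, were all lower, among them Rac2 (4.08-fold), Ncf1 (2.26-fold), Ncf4 (1.85-fold) and Cyba (1.71-fold). When scaled to leukocyte genes, 2 of the 6 were lower, 2 higher and 2 not called, against 6.2% lower and 78.6% higher of all genes.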

How the data were processed

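RNA sequencing of sorted NK cells was measured in 8 libraries, 4 per group, grouped by title. The submitters' processing notes name FastQC 0.11.9, STAR, Salmon and the build GRCm38 (mm10). For STAR and Salmon no version, and for the analysis no annotation release or strand option, is given in the sources used here. One deposited table has estimated counts per gene without scaling, with 7.9 to 8.82% of a library's values being fractional, and the authors' other table has TPM, scaled by length and library. All columns of sample values were mapped.

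Counts were rounded, filtered with filterByExpr, scaled with TMM and tested with the edgeR 4.0.16 quasi-likelihood F test (R 4.3.3), with Benjamini-Hochberg adjustment over 14006 genes and a threshold of 0.05. The common dispersion was 0.071. Errors of levels are SD of 4 libraries. Standard errors are the log2 fold change divided by the square root of F. A group at 0 was set to a floor of 3 counts per library, which covers counting error only. The script was tested on simulated data.

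The members, gene lists and the rule for named genes were chosen with earlier results of these data known. All members may be named, with values in every library for those at an adjusted p of at most 0.05, a log2 change of at least 2 and a mean of at least 5 CPM, and for 7 pathway genes; they were added for Gpx1, Prdx2 and Gstm1 after the values were seen. From each related list, up to 4 genes with the smallest adjusted p were eligible. Other pathway genes named outside that rule are marked. Gene positions are those of GENCODE M21 (GRCm38). Since the strand setting is unknown, reads of the 13 members that overlap a gene on the opposite strand may include that gene's. In 27 members no 60-base stretch occurs in another annotated gene, and in 5 at least 15% do.

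Alternatives were DESeq2 1.42.0 and its size factors, library size alone, scaling to leukocyte genes, 2 other filters, limma 3.58.1 on log2(TPM + 1) and log2(TPM + 0.1), the replicate number as a block, and leaving out libraries.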

Additional observations from a re-analysis of the deposited data

Results flagged for a closer look

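Within a group of 4, a highest or lowest CPM that stood far from the other 3 (Dixon's test at 95%) was looked for in both groups of the 42 tested members, 84 groups in all, and 7 were found. For normally distributed values chance gives about 1 in 20 groups, a rate that need not hold where counts are 0. A group with 1 library above 0, such as Sod3 in spNK, is always flagged. A group at 0 throughout, such as Adh7 in spNK, has no spread to test. In spNK 3, the library with most erythroid and B cell markers, Prdx1 was at 250 CPM (224 to 227 in the others), Sod1 at 336 CPM (246 to 257), Sod3 at 0.245 CPM (0 in the others) and Gstm1, the lowest, at 27.7 CPM (42 to 44.3). In tuNK 1, the library with most mesenchymal markers, Gpx3 was at 5.25 CPM (0.737 to 1.42). In tuNK 3, Prdx3 was at 183 CPM (147 to 152), and in tuNK 2, Cbr3 was at 0.186 CPM (0 to 0.0259).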

How the results depend on the processing

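Of the 42 members, 32 kept their side of the threshold in every alternative other than leukocyte scaling that tested them. Of these, 26 were called, and they kept their direction as well. Among those not called the direction could change, as for Mgst1 (-1.03, but 0.08 without spNK 3). The number of members higher in tuNK ran from 19 to 35 and lower from 2 to 9. Leaving out single libraries gave 23 to 27 higher and 7 or 8 lower members and a median log2 fold change of 0.59 to 0.71. Without spNK 3 and tuNK 1 together, 26 were higher and 8 lower. Scaling to leukocyte genes gave 11014 higher and 868 lower of all genes and 2 lower members (Aldh1a1 and Cbr1), with a member median of 2.33. The median was 0.46 by library size and, on log2 TPM, 0.36 with an offset of 1, 0.42 with an offset of 0.1 and 0.36 without a filter. Leukocyte scaling reversed Nfe2l2 (1.64), Gclc (1.34), Gclm (1.67), Txnrd1 (1.60), Gpx1 (1.58) and Cat (0.59), as its shift of all genes implies. Keap1 reversed on log2 TPM, to -0.03 with an offset of 1, -0.04 with an offset of 0.1 and -0.03 without a filter; the cause was not tested. The labels do not say whether same-numbered libraries are paired. Correlations of their deviations ran from -0.0081 to 0.0417, and 6 of 8 libraries correlated best with their own number, a hint from the data and not the design. With the replicate block 26 members were higher and 7 lower. Members whose mean was under 1 CPM in at least one group (Me1, Gpx3, Sod3, Gstm2, Gstt1, Mgst1, Adh7, Aldh1a1, Aldh1a3, Aldh3a1 and Cbr3, beside Gpx2) rest on few or no counts there. The TPM difference of Gpx1 without spNK 3 (-16.7) was an alternative chosen after seeing the data.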
